A study of Mus musculus with 3 samples.

Results

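The genes described here are those for the nuclear-encoded subunits of oxidative phosphorylation, the 5 protein complexes of the inner mitochondrial membrane that oxidise NADH and succinate and make ATP. They were taken by name: Ndufa, Ndufb, Ndufc, Ndufs or Ndufv with a number, Sdha to Sdhd, Cyc1, the Uqcr genes, the Cox4 to Cox8 subunits and the Atp5 genes, without the muscle isoforms Cox6a2, Cox7a1 and Cox8b. Of 82 such genes in the gene table, 81 had a probe and 79 were tested, among 19815 genes tested in all. The 79 comprised 35 genes of complex I, 4 of complex II, 9 of complex III, 14 of complex IV (with Ndufa4, now counted as a subunit of that complex) and 17 of complex V. Ndufb1 was not analysed here. The probe of Cox7b2 stood well above background on 1 array in the null channel and on 0 in the heterozygous channel, and that of Cox8c in neither channel on any array, so these genes were not tested.

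Mouse embryonic stem cells derived from Hopx-/- or Hopx+/- blastocysts were differentiated as embryoid bodies, aggregates that form derivatives of several germ layers, and total RNA was taken on day 8. Both genotypes had the same treatment: growth on feeder cells, hanging drops of 20 µl, suspension culture, then plating in cardiac medium with Glutamax (2 mM), ascorbic acid (1 mM) and the growth factors FGF10 (12.5 ng/ml), bFGF (10 ng/ml) and VEGF (5 ng/ml). A null culture's RNA was hybridised together with that of a heterozygous culture on each of 3 Agilent 2-colour arrays, the 3 biological replicates, so that each ratio was taken within an array. The control cultures therefore also lack a copy of Hopx, which encodes a small homeodomain protein of heart and progenitor cells, and the sources used here do not say whether replicates were separate stem cell lines, so that p-values speak to the spread of these samples alone and genotype cannot be told apart from stem cell line.

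All ratios are log2 of null over heterozygous, given with the moderated standard error (SE) of limma, n = 3 arrays unless stated. The ratios of replicate 3 were turned in sign, because, with Cy5 taken as null on every array as in the labels, the correlation of replicate 3 across 24575 probes was -0.903 against replicate 1 and -0.902 against replicate 2 (probes are not independent replicates), and because the authors' deposited table has replicate 3 the other way round from its scanner ratios. That direction is the likely one and is not settled by the labels. Without turning replicate 3, the number of genes limma called was 0, with 62 genes and 0 subunit genes at an unadjusted p under 0.05. Hopx itself fell by 3.13 (SE 0.11, adjusted p = 2.8e-07), with array ratios of -2.98, -2.97 and -3.45. The share of the 43020 spots that stood well above background ranged from 61.9% to 72.9% over the channels, and all 79 subunit genes were so in both channels on all 3 arrays.

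Complex I takes electrons from NADH and complex II takes them from succinate; both hand them to ubiquinone. Complex III passes them on to cytochrome c, complex IV to oxygen, and complex V, the ATP synthase, uses the proton gradient that complexes I, III and IV build. Heart muscle is rich in mitochondria, and several complex IV subunits have paired isoforms, a broadly expressed form and a form kept to muscle, lung or testis. Nuclear respiratory factor 1 (NRF1), ETS-family factors, YY1, CREB and the estrogen-related receptors (ERR) are known regulators of subunit genes.

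The 250 bases before the annotated start of genes that the results turn on are given here, from RefSeq (GRCm38.p6), 5′ to 3′ on the gene's strand, with capitals for each match to the NRF1 motif or the ETS letters CCGGAAG on either strand. They are Ndufs8 (chr19:3912775-3913024, minus strand), the complex I gene with the highest ratio, Ndufa6 (chr15:82354292-82354541, minus strand), the complex I gene with the lowest ratio, Atp5h (chr11:115419920-115420169, minus strand), the highest of complex V, Sdha (chr13:74350241-74350490, minus strand), the complex II gene that rose, and Cox6a1 (chr5:115348959-115349208, minus strand), a complex IV gene with a saturated probe and no firm direction.
Ndufs8: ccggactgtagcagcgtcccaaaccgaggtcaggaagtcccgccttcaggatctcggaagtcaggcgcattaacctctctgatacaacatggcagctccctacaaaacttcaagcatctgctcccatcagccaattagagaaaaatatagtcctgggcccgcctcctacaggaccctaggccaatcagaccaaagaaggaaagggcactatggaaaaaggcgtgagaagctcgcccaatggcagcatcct
Ndufa6: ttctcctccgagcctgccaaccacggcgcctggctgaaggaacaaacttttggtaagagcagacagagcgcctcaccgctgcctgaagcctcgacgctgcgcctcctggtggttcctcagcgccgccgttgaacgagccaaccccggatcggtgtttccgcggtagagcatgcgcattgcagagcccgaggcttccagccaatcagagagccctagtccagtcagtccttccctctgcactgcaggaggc
Atp5h: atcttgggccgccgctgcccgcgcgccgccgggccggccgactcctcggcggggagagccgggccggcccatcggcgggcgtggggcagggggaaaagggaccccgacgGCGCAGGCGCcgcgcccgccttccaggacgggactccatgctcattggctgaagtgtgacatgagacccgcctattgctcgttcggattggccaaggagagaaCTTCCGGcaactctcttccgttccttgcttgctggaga
Sdha: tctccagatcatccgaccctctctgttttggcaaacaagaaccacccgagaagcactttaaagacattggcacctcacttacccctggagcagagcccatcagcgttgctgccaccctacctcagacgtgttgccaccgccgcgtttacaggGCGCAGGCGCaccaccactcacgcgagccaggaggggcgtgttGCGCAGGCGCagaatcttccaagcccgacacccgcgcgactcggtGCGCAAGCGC
Cox6a1: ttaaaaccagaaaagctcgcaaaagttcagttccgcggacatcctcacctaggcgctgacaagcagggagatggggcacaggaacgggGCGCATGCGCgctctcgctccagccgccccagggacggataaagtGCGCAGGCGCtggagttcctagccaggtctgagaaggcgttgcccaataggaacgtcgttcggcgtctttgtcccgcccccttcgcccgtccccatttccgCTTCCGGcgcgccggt
The windows of Ndufs8 and Ndufa6, which moved in opposite directions, held no match to either motif, that of Sdha held 3 matches to the NRF1 motif, and those of Atp5h and Cox6a1 held both motifs. A match is a description of letters and not a site.

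A window was found for 65 of the 79 subunit genes and for 17492 protein-coding genes in all. The NRF1 motif occurred in 13 subunit windows (20.0%), against 5.84% of all windows. Of those 13 genes 2 were called higher, 3 lower and 8 neither (of the 3, Cox6a1 and Atp5g2 had saturated probes and stood above 0 in the authors' deposited table), while 13 of the 65 were called higher, 15 lower and 37 neither. The ETS letters occurred in 12 subunit windows (18.5%, against 10.2% of all), the CREB letters TGACGTCA in 4 (6.15%, against 2.2%), the ERR letters CAAGGTCA in 3 (4.62%, against 1.34%) and the YY1 letters AAGATGGCG in 1 (1.54%, against 0.840%). All motifs were searched on both strands, and a base could belong to more than 1 match.

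Subunit genes went both ways in null embryoid bodies, and by little. Of 79 genes, 18 rose, 17 fell and 44 did not pass limma's test at an adjusted p of 0.05. The share called was 44.3%, while among all genes tested 60.3% were called, 30.2% higher and 30.1% lower. At least 1.5-fold ratios were seen for 7 subunit genes (8.86%, against 27.2% of all genes), and 1, Cox4i2, was called with a change of at least 2-fold, against 10.9% of all genes. The 95% interval of the ratio lay within 1.5-fold of no change for 60 subunit genes (75.9%, against 54.2% of all genes). The log2 intensities of null and heterozygous cultures did not overlap for 28 of the 75 subunit genes measured on all arrays, against 52.6% of all genes. These are descriptive shares, and genes are not replicates. The called rises were 1.17-fold to 1.69-fold, and the called falls 1.20-fold to 2.13-fold.

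The median ratio over the 79 genes was 0.03, with medians of -0.0042, 0.016 and 0.022 on the 3 arrays, and the median of all genes tested was 0.0034. The ratios of subunit genes had an SD of 0.33 and those of all genes 0.66. Subunit probes were bright, 70 of 79 lying above a mean log2 intensity of 12, where 60.6% of all genes and 41.4% of subunit genes were called. The calls were those of a moderated test. An ordinary statistic per probe, which shares no spread between probes, called 7 subunit genes higher and 6 lower, against 20.2% of all genes.

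**Figure D1:**
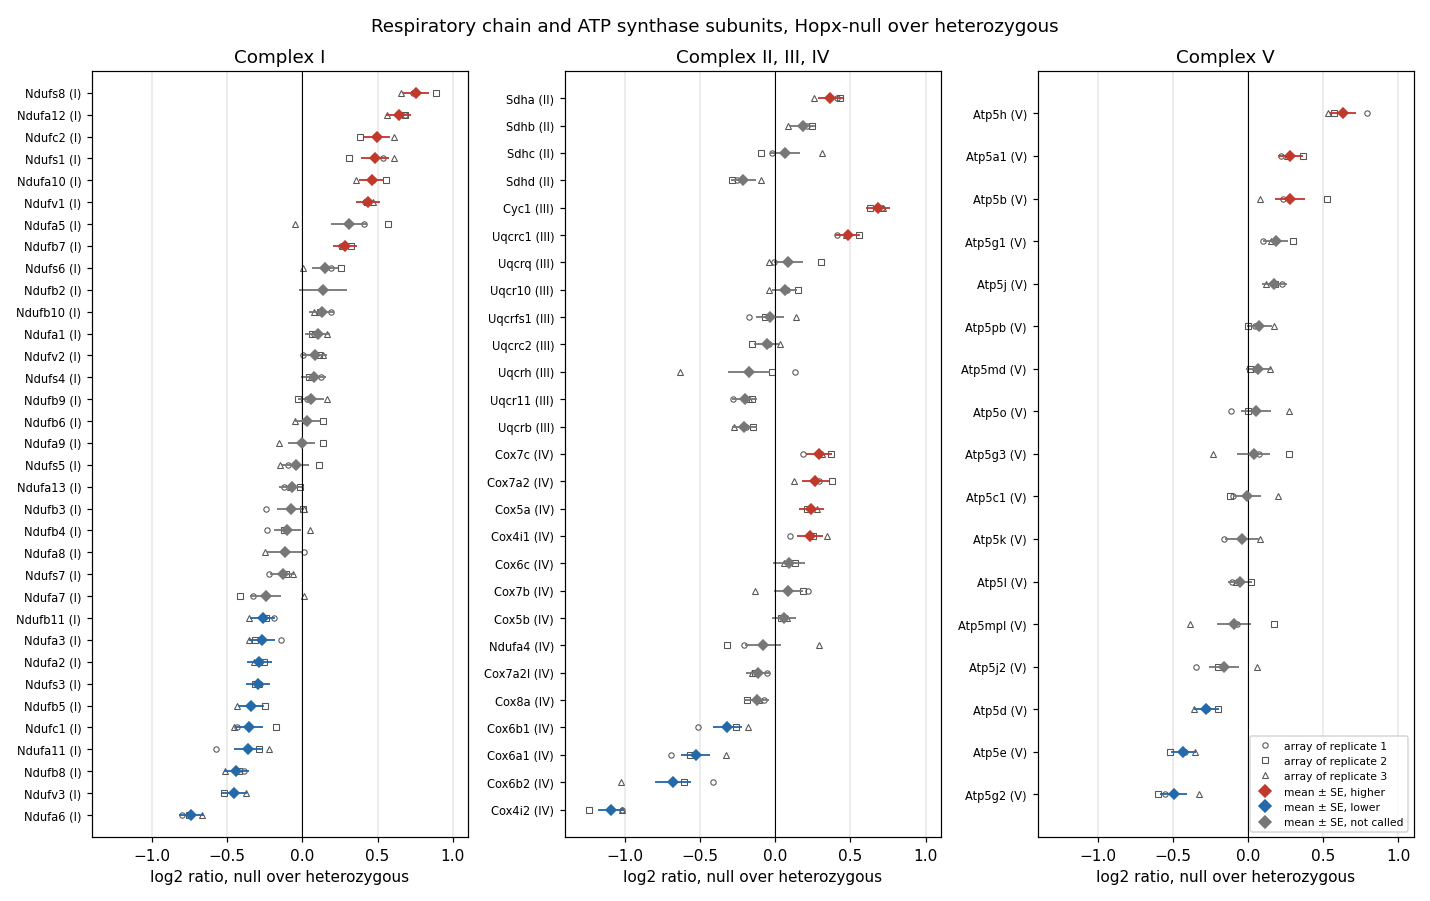
Log2 ratio of null over heterozygous (horizontal axis) for 78 subunit genes, by complex; open symbols are the 3 arrays and diamonds the mean with the limma SE, in red where called higher, blue where called lower and grey where not called. Most diamonds lie within 0.5 of 0, and Cox4i2 at -1.09 lies farthest from it.

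How the arrays were centred sets how many genes count as higher or lower. With each array centred on its median and no loess, 50 subunit genes were called higher and 2 lower (58.3% of all genes were called, in either direction). The median of all genes tested itself stood at 0.23, with the subunit median at 0.43. All 18 higher calls kept their call there, but subunit ratios moved up in this setting, so this is no check on the rises. Of the 17 lower calls, Ndufa6 (-0.32) and Cox4i2 (-0.79) kept it and 9 turned above 0, although all 17 stayed under the median of all genes. Statements on rises and falls therefore hold relative to genes of like brightness, as loess centres them. In other settings the calls were 10 higher and 11 lower in the authors' deposited table (41.2% of all genes called), 19 and 19 with a dye term (65.8%), 9 and 11 with the channels treated as separate samples (41.1%), and 13 and 10, 10 and 13, or 17 and 18 without replicate 1, 2 or 3 (51.6%, 49.6% and 60.0%). Across the alternatives tried, leaving aside replicate 3 as labelled, 7 subunit genes kept call and direction in every one: Ndufs8, Ndufa12, Ndufv1, Cyc1 and Uqcrc1 as higher, and Ndufa6 and Cox4i2 as lower.

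**Figure D2:**
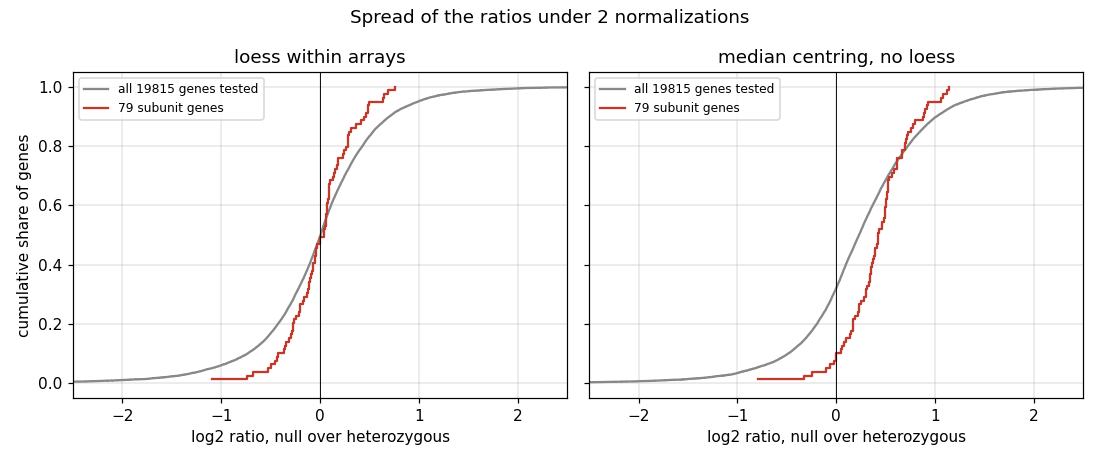
Cumulative share of genes (vertical axis) by log2 ratio of null over heterozygous (horizontal axis) for all 19815 genes tested (grey) and the 79 subunit genes (red), with loess on the left and with median centring without loess on the right. The red curve is the steeper in both panels and crosses 50% at 0.03 on the left and at 0.43 on the right, where the median of all genes is 0.23.

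Complex I, the NADH dehydrogenase, held the highest ratio of all subunit genes, that of Ndufs8. Of its 35 genes 8 rose and 10 fell, with a median of -0.0060 (0.42 with median centring without loess). The core subunits, which are conserved from bacteria and carry the flavin and the iron-sulphur clusters, are given gene by gene. The accessory subunits, which surround that core, stood at a median of -0.06 over 28 genes, with 4 higher and 9 lower.

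Ndufs8, which carries a pair of iron-sulphur clusters on the way to ubiquinone, had log2 intensities of 11.31, 11.05 and 10.80 in the null cultures and of 10.58, 10.17 and 10.15 in the heterozygous cultures. Every null value lay above every heterozygous value. Its ratio was 0.76 (SE 0.09, adjusted p = 0.00011), a 1.69-fold rise, with array ratios of 0.73, 0.89 and 0.65. Ndufa12, an accessory subunit of the peripheral arm, had null intensities of 14.65, 14.38 and 14.35 and heterozygous intensities of 13.97, 13.70 and 13.79. These groups did not overlap either. It rose by 0.64 (SE 0.08, adjusted p = 0.00022), and its array ratios were 0.68, 0.68 and 0.56. Ndufc2, a small subunit of the membrane arm, rose by 0.50 (SE 0.09, adjusted p = 0.0012), with array ratios of 0.50, 0.39 and 0.61.

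Among the core genes, Ndufs1, which encodes the largest iron-sulphur subunit, rose to 0.48 (SE 0.09, adjusted p = 0.0019), and Ndufv1, which holds the flavin where NADH is oxidised, to 0.44 (SE 0.08, adjusted p = 0.0016). Ndufv1 was even across arrays, at 0.42, 0.43 and 0.47. Ndufs3, another core gene, fell by 0.30 (SE 0.08, adjusted p = 0.012), with array ratios of -0.28, -0.32 and -0.29, and was no longer called without replicate 1 (adjusted p = 0.052) or replicate 2 (adjusted p = 0.069). Ndufv2 (0.08) and Ndufs7 (-0.13) did not pass. The accessory genes Ndufa10 (0.46) and Ndufb7 (0.28) also rose, Ndufb7 losing its call without replicate 1 (adjusted p = 0.061) or replicate 2 (adjusted p = 0.095).

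Among the accessory genes that fell, Ndufa6, whose product docks an acyl carrier protein at the ubiquinone end of the peripheral arm, had null intensities of 11.28, 11.50 and 11.28 and heterozygous intensities of 12.08, 12.26 and 11.94. All null values lay under all heterozygous values. It fell by 0.74 (SE 0.08, adjusted p = 9.7e-05), with array ratios of -0.80, -0.75 and -0.67. Ndufv3, a small subunit of the NADH-oxidising module, fell by 0.45 (SE 0.08, adjusted p = 0.0016), with -0.46, -0.52 and -0.37 on the arrays, and Ndufb8, of the membrane arm, fell by 0.44 (SE 0.08, adjusted p = 0.0018), with -0.39, -0.42 and -0.51. With median centring without loess these last genes stood at -0.02 (Ndufv3) and -0.01 (Ndufb8) and were not called. The distance between Ndufs8 and Ndufa6 within an array does not depend on centring in that way. It was 1.54, 1.64 and 1.32 with loess (mean 1.498, SD 0.16, n = 3), with a mean of 1.46 under median centring without loess. The pair holds the highest and the lowest ratio of complex I on these same arrays, so a large distance of this sign was set by the choice.

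The remaining complex I genes called lower besides Ndufs3 were the accessory genes Ndufb11, Ndufa3, Ndufa2, Ndufb5, Ndufc1 and Ndufa11, between -0.26 and -0.36. Ndufb11 lost its call without any of the 3 replicates in turn, Ndufa3 without replicate 2 or 3, Ndufa2 without replicate 1 or 2, and Ndufc1 and Ndufa11 without replicate 1, while Ndufb5 kept it. None of these genes was called with median centring without loess. The dimmer second probes of Ndufb5 (-0.15) and Ndufb11 (0.05) were not called either, that of Ndufb11 with the opposite sign. The 17 complex I genes that did not pass lay between -0.24 (Ndufa7) and 0.31 (Ndufa5). Ndufa5 was split over its arrays, at 0.41, 0.57 and -0.05. Ndufb2 was measured on 1 array and Ndufa8 on 2.

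Complex II, succinate dehydrogenase, also serves the citric acid cycle. Sdha, its flavin subunit, rose by 0.37 (SE 0.08, adjusted p = 0.0054), with null intensities of 12.87, 13.17 and 13.11 and heterozygous intensities of 12.45, 12.74 and 12.85. The groups stood apart by a narrow margin, and the array ratios were 0.41, 0.43 and 0.26. Sdhb, the iron-sulphur subunit, was higher on each array, at 0.21, 0.24 and 0.09, but its ratio of 0.18 (SE 0.08) did not pass (adjusted p = 0.092). The membrane anchors Sdhc, at 0.06 (arrays -0.02, -0.09 and 0.31), and Sdhd, at -0.21 (arrays -0.26, -0.29 and -0.09), did not pass either. The median of complex II was 0.12 (0.56 with median centring without loess).

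In complex III, the cytochrome bc1 complex, 2 of 9 genes rose and 0 fell, with a median of -0.04 (0.39 with median centring without loess). Cyc1, which encodes cytochrome c1, had null intensities of 14.26, 14.01 and 14.09 and heterozygous intensities of 13.55, 13.38 and 13.38. The groups did not overlap, and the array ratios were nearly equal at 0.71, 0.63 and 0.71. Cyc1 rose by 0.68 (SE 0.08, adjusted p = 0.00014), or 1.61-fold. Uqcrc1, a core protein that carries no redox group, rose by 0.48 (SE 0.08, adjusted p = 0.0011), with array ratios of 0.41, 0.56 and 0.47. The partner core gene Uqcrc2 was at -0.06 (SE 0.08) and the Rieske iron-sulphur gene Uqcrfs1 at -0.04 (SE 0.09), and neither passed.

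No small subunit of complex III passed the test in the main setting. With a dye term in the limma fit, Uqcrh (-0.29, adjusted p = 0.0096) and Uqcrb (-0.22, adjusted p = 0.031) were called lower. Uqcrq was at 0.09 (arrays -0.01, 0.30 and -0.04), Uqcr11 at -0.20 (arrays -0.28, -0.16 and -0.18) and Uqcrb at -0.21 (arrays -0.19, -0.15 and -0.28). Uqcr11 and Uqcrb were lower on each array and missed the threshold at adjusted p = 0.060 and 0.057. Uqcrh, the hinge subunit that helps dock cytochrome c, disagreed between arrays, at 0.13, -0.02 and -0.63, for a ratio of -0.17 (SE 0.14). Its second probe had the same uneven pattern, at -0.0062, -0.04 and -0.70.

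Of the 14 genes of complex IV, cytochrome c oxidase, 4 rose and 4 fell, with a median of -0.01 (0.42 with median centring without loess). Among the 11 broadly expressed subunits 4 rose and 2 fell, and the 2 measured genes of tissue-restricted isoforms, Cox4i2 and Cox6b2, both fell, the second of them without a call under median centring without loess. Cox4i2, the form of subunit 4 that is abundant in lung and known to respond to low oxygen, had null intensities of 8.84, 8.43 and 8.35 and heterozygous intensities of 9.86, 9.67 and 9.37. No null value reached a heterozygous value. It fell by 1.09 (SE 0.09, adjusted p = 1.5e-05), 2.13-fold, with array ratios of -1.02, -1.24 and -1.02.

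Cox4i1, the broadly expressed form of the same subunit, had null intensities of 15.65, 15.68 and 15.66 and heterozygous intensities of 15.56, 15.43 and 15.32, and its null probe was saturated on 1 array. It was called higher by a narrow margin (ratio 0.23, SE 0.09, adjusted p = 0.049; arrays 0.10, 0.25 and 0.34) and lost the call without any of the 3 replicates in turn. Within each array the ratio of Cox4i1 exceeded that of Cox4i2, by 1.11, 1.49 and 1.36 (mean 1.32, SD 0.19, n = 3), and by a mean of 1.45 with median centring without loess.

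**Figure D3:**
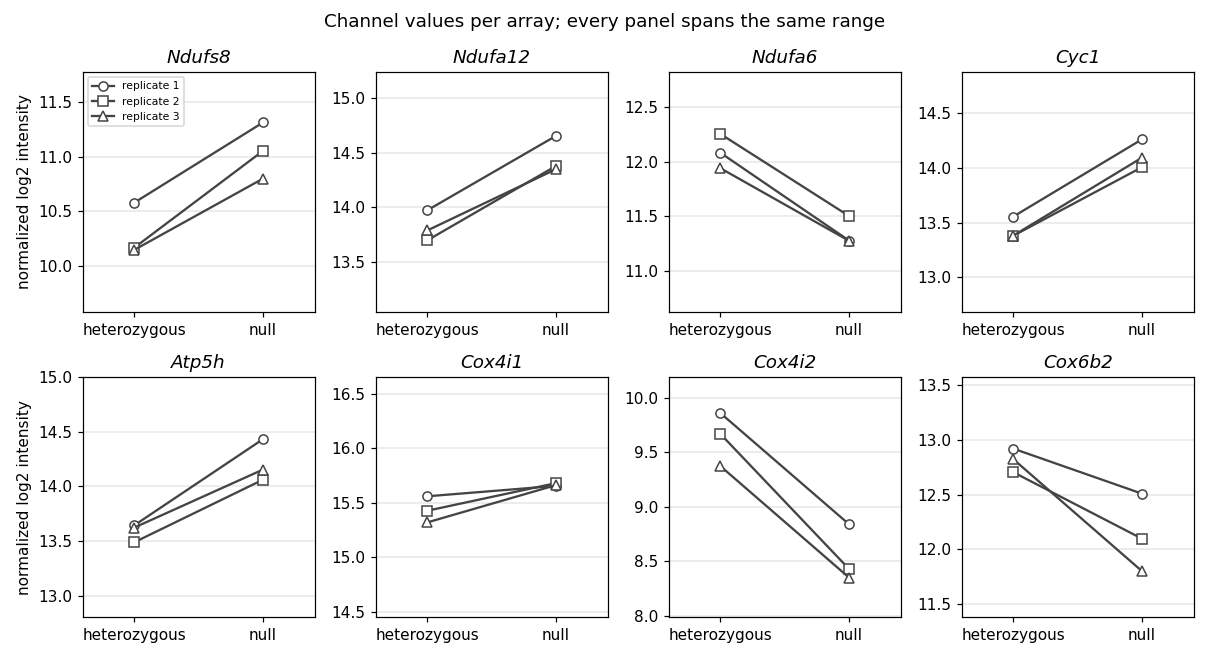
Normalized log2 intensity (vertical axis) in the heterozygous and the null culture of each array, joined by a line per replicate, for 8 subunit genes; every panel spans the same range of log2 units. Lines rise for Ndufs8, Ndufa12, Cyc1 and Atp5h, fall for Ndufa6, Cox4i2 and Cox6b2, and are close to level for Cox4i1.

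Cox6b2, the testis form of subunit 6b, fell by 0.68 (SE 0.12, adjusted p = 0.0012), with intensities of 12.51, 12.10 and 11.80 in null and of 12.92, 12.71 and 12.83 in heterozygous cultures. The groups did not overlap, but the array ratios spread widely, at -0.41, -0.61 and -1.03, and with median centring without loess the ratio was -0.25 and not called. Cox6b1, the broad form, fell by 0.32 (SE 0.09, adjusted p = 0.018; arrays -0.52, -0.26 and -0.18), lost its call without replicate 1 (ratio -0.22, adjusted p = 0.15), and stood at 0.06 with median centring without loess. The difference of Cox6b1 over Cox6b2 changed sign between arrays, at -0.10, 0.35 and 0.85.

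Cox6a1, the broad form of subunit 6a, was near the top of the scanner's range, with intensities of 15.63, 15.66 and 15.84 in null and of 16.32, 16.22 and 16.16 in heterozygous cultures, and was saturated on 1 array in each channel. It was called lower at -0.53 (SE 0.10, adjusted p = 0.0015, arrays -0.69, -0.57 and -0.33), but stood at 0.21 in the authors' deposited table. That deposited value may rest on fewer arrays, and the direction of Cox6a1 is not firm. The other broad subunits that rose were Cox7c at 0.29 (SE 0.08; arrays 0.19, 0.37 and 0.31), Cox7a2 at 0.27 (SE 0.09; arrays 0.29, 0.38 and 0.12) and Cox5a at 0.24 (SE 0.08; arrays 0.23, 0.21 and 0.28). Each of these calls was lost without some replicate: Cox7c without replicate 2 (adjusted p = 0.11), Cox7a2 without replicate 1 or 2 (0.12 and 0.18, as adjusted p), and Cox5a without any of the 3. Ndufa4 at -0.08 (arrays -0.21, -0.32 and 0.29), Cox8a at -0.12 (arrays -0.07, -0.19 and -0.11) and Cox7a2l, which joins complexes III and IV into a supercomplex, at -0.11 (arrays -0.06, -0.13 and -0.15) did not pass. Cox6c at 0.09 (measured on 2 arrays), Cox7b at 0.09 and Cox5b at 0.06 did not pass either.

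The muscle isoforms left out by name fell further than any of the 79 genes. Cox6a2, the heart and skeletal muscle form of subunit 6a, had intensities of 7.69, 7.53 and 6.90 in null and of 12.23, 11.58 and 11.51 in heterozygous cultures and fell by 4.40 (SE 0.12, adjusted p = 1.3e-07), 21.1-fold. Cox7a1, the muscle form of subunit 7a, fell by 1.59 (SE 0.09, adjusted p = 2.5e-06), 3.00-fold, with array ratios of -1.62, -1.42 and -1.72. Cox8b was not well above background in any null culture and was at least 2.41-fold lower there (limma adjusted p = 3.4e-06). For that bound its null value on an array was its own signal or the lowest signal well above background, whichever was higher. Their broadly expressed counterparts Cox6a1, Cox7a2 and Cox8a had ratios of -0.53, 0.27 and -0.12.

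Complex V, the ATP synthase, had 3 genes higher and 3 lower of 17, with a median of 0.04 (0.43 with median centring without loess, 0.08 without replicate 1). Atp5h, subunit d of the stalk that holds the catalytic head still, had null intensities of 14.43, 14.06 and 14.15 and heterozygous intensities of 13.64, 13.49 and 13.62. The groups did not overlap, and Atp5h rose by 0.63 (SE 0.09, adjusted p = 0.00037), with array ratios of 0.79, 0.57 and 0.53. Its other probe rose too, at 0.44 (SE 0.08).

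In the catalytic head (F1), 2 genes were called higher, 2 lower and 1 neither. Atp5a1 and Atp5b, for the alpha and beta subunits that form the active sites, were both at 0.28 (SE 0.08 and 0.10; adjusted p = 0.018 and 0.042). The arrays gave 0.22, 0.36 and 0.26 for Atp5a1 and 0.23, 0.52 and 0.08 for Atp5b. Atp5a1 lost its call without replicate 2 (adjusted p = 0.12), as did Atp5b, whose ratio was then 0.16 (adjusted p = 0.32); Atp5b also lost it without replicate 1 (adjusted p = 0.088). Atp5e and Atp5d, for the epsilon and delta subunits of the rotating central stalk, were at -0.43 (SE 0.08, adjusted p = 0.0021) and -0.28 (SE 0.08, adjusted p = 0.019), with array ratios of -0.42, -0.52 and -0.35 and of -0.27, -0.20 and -0.36. With median centring without loess Atp5d stood at 0.16 and Atp5e at -0.0026, neither called, and Atp5d was not called without replicate 1 (adjusted p = 0.076) or replicate 3 (adjusted p = 0.051). In the authors' deposited table Atp5a1, Atp5b and Atp5e were not called, and with the scanner software's processed signals Atp5a1 and Atp5b were not. Atp5c1, for the gamma shaft, was at -0.0068 (SE 0.09), and its dimmer second probe at -0.39 was called lower.

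In the membrane part and outer stalk (Fo), 10 of 12 genes did not pass. The c-ring that turns in the membrane is made of a single mature protein encoded by Atp5g1, Atp5g2 and Atp5g3. Atp5g2 was called lower at -0.49 (SE 0.09, adjusted p = 0.0015, arrays -0.55, -0.60 and -0.33), but its null probe was saturated on 1 array. Its dimmer probe was at -0.21 without passing (adjusted p = 0.073). The authors' deposited table had Atp5g2 at 0.37, a value that may rest on fewer arrays. Atp5g1 was at 0.18 (arrays 0.10, 0.30 and 0.15; adjusted p = 0.097) and Atp5g3 at 0.04 (arrays 0.07, 0.27 and -0.23). The other genes of this part that did not pass lay between -0.16 (Atp5j2) and 0.17 (Atp5j), Atp5k being measured on 2 arrays.

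The lists were described by counts and medians without a test, and the share of all genes called was 60.3%. Of 15 complex I assembly factors 5 rose and 3 fell (median 0.07, or 0.33 with median centring without loess), among them Acad9 at 1.51 (SE 0.09) and Ndufaf2, which binds the growing peripheral arm, at 1.30 (SE 0.09) on the high side, and Timmdc1 at -0.51 (SE 0.08) and Tmem126b at -0.39 (SE 0.09) on the low side. Acad9, Timmdc1 and Tmem126b all act in building the membrane arm. Of 19 complex IV assembly factors 6 rose and 6 fell (median -0.07, or 0.36 with median centring without loess), from Lrpprc, which stabilises mitochondrial mRNAs, at 1.06 (SE 0.10) and Cmc2 at 0.64 (SE 0.11) to Cox14 at -0.74 (SE 0.08) and Cmc1 at -0.92 (SE 0.09).

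The assembly lists of the other complexes were short. For complex II, 1 of 4 rose (median 0.11), Sdhaf2, which helps insert the flavin into Sdha, at 0.33 (SE 0.08). For complex III, 2 of 5 rose and 3 fell (median -0.31, or 0.06 with median centring without loess), with Uqcc2 at 0.52 and Bcs1l, which inserts the Rieske protein, at 0.33, and Uqcc3 at -0.38 and Ttc19 at -0.52. For complex V, 1 of 5 rose and 1 fell (median -0.17, or 0.26 with median centring without loess), Fmc1 at 0.34 and Atpaf1 at -0.23, the latter above background in null on 1 array. Bcs1l and Atpaf1 lost their calls without replicate 1 or 2, Uqcc3 without replicate 1, Fmc1 without replicate 2 or 3, and Atpaf1 also without replicate 3.

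Of 13 genes of ubiquinone synthesis and cytochrome c, the mobile carriers between the complexes, 5 rose and 4 fell (median 0.16, but 0.06 without replicate 2, 0.03 with the mean of a gene's probes and 0.47 with median centring without loess). Pdss1, which starts the ubiquinone side chain, rose by 1.14 (SE 0.09) and Cycs, somatic cytochrome c, by 0.99 (SE 0.08; arrays 0.92, 1.00 and 1.07), while the Coq8a and Coq8b genes fell, to -0.43 (SE 0.10) and -0.48 (SE 0.09). Cytochrome c and its reductase subunit Cyc1 were thus both higher on all 3 arrays. Ndufab1, the acyl carrier protein that Ndufa6 binds and that the naming rule leaves out, rose by 0.47 (SE 0.10; arrays 0.25, 0.49 and 0.66).

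Among all genes 30.2% were called higher and 30.1% lower. Of 77 mitochondrial ribosome genes 36 rose and 9 fell (median 0.22), of 27 protein import genes 15 rose and 1 fell (median 0.25), and of 18 genes of pyruvate dehydrogenase and the citric acid cycle 10 rose and 3 fell (median 0.25). With median centring without loess the medians were 0.64, 0.68 and 0.59, against 0.23 for all genes. Without replicate 1 or without replicate 2 only 3 ribosome genes fell. Without replicate 1 the import median was 0.39, and 5 genes of the citric acid cycle group rose. Examples were Mrpl20 at 1.06, Mrps12 at 0.92, Mrpl14 at -0.58 and Mrps6 at -0.64 in the ribosome; Tomm22, an import receptor, at 2.10, Hspd1, the matrix chaperonin, at 1.09 and Timm10b at -0.34 in import; and Pdhb, a pyruvate dehydrogenase subunit, at 1.69, Idh3a at 0.49, Idh3b at -0.30 and Idh2 at -0.50 in the cycle. Timm10b and Idh3b lost their calls without replicate 1 or 2. Of 17 regulators of mitochondrial biogenesis 7 rose and 7 fell (median 0.20). Their median was 0.10 without replicate 3 and 0.05 with the mean of a gene's probes, and the authors' deposited table gave 1 higher and 6 lower. They included Polrmt, the mitochondrial RNA polymerase, at 0.54 (SE 0.09), Twnk, the mitochondrial DNA helicase, at 0.40 (SE 0.11), Polg, the DNA polymerase, at -0.94 (SE 0.10) and Esrrg, an estrogen-related receptor, at -1.33 (SE 0.13).

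**Figure D4:**
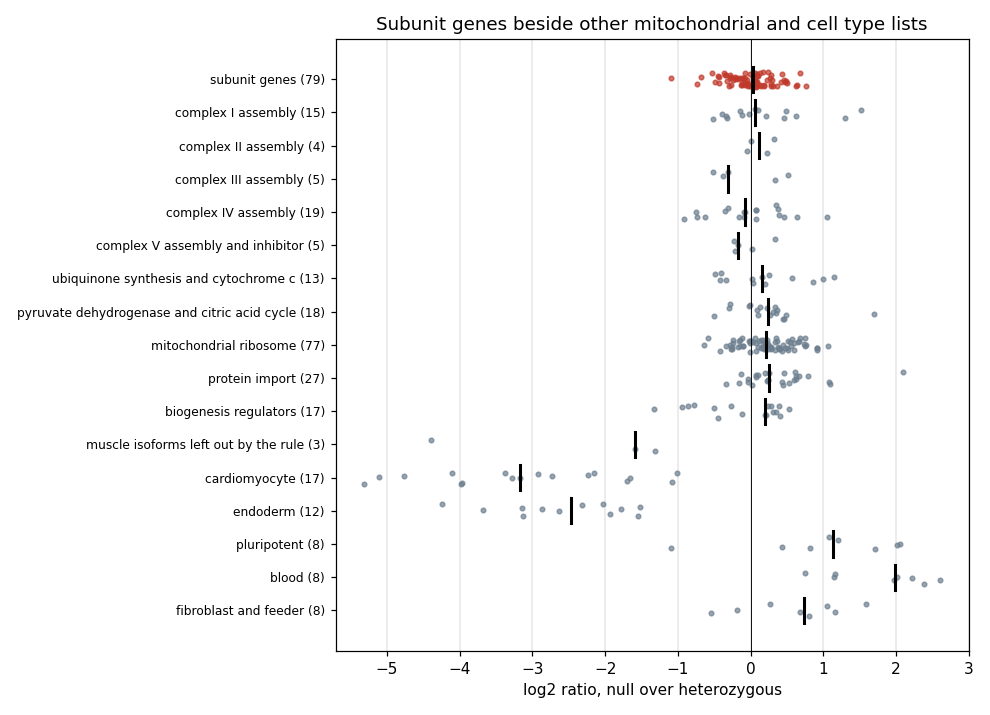
Log2 ratio of null over heterozygous (horizontal axis) for every tested gene of the subunit set (red) and of the other lists (grey, number of genes in brackets), with a black bar at each list's median. The subunit genes lie between -1.09 and 0.76, around a median of 0.03, while the cardiomyocyte and endoderm lists lie wholly to the left of 0.

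The cultures differed strongly in markers of cell types, and in bulk RNA fewer cells of a type and less RNA per cell cannot be told apart. All 17 cardiomyocyte markers were well above background in every heterozygous culture, and all 17 fell in null cultures (median -3.18), with a summed log2 level of 14.70 to 15.23 in null and of 18.01 to 18.35 in heterozygous cultures. Myh6 and Myh7, the cardiac myosin heavy chains, had ratios of -5.31 (SE 0.14) and -5.11 (SE 0.11); Tnni3 alone was not well above background on all null arrays. All 12 endoderm markers fell too (median -2.48; summed level 14.46 to 14.81 in null and 17.09 to 17.43 in heterozygous cultures), with Cubn at -4.25 (SE 0.10) and Rbp4 at -3.68 (SE 0.12).

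Markers of other cell types were higher in the null cultures. Of 8 pluripotency markers 7 rose and 1 fell (median 1.14; 15.47 to 15.64 in null and 14.37 to 14.62 in heterozygous cultures), with L1td1 at 2.06, Nanog at 2.01 and Zfp42 at -1.09. All 8 blood markers rose (median 1.99; 17.06 to 17.34 in null and 15.11 to 15.94 in heterozygous cultures), with Slc4a1 at 2.61 and Hba-x at 2.38. Of 8 fibroblast and feeder markers 6 rose and 1 fell (median 0.74; 15.64 to 16.18 in null and 14.40 to 15.17 in heterozygous cultures), with Col1a2 at 1.59, Lum at 1.17 and Pdgfra at -0.55. The part of these differences in the ratios of the subunit genes and of the muscle isoforms was not tested.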

How the data were processed

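The scanner's spot intensity values of both dyes, with backgrounds and flags, were deposited. The software was Agilent Feature Extraction, its version 11.5.1.1 per the file headers and 8.5.1.1 per the submitters' processing notes. The authors also deposited a table of processed values, its scale, normalization and centring not stated, read here as log2 ratios: against scanner ratios of bright spots its slopes were 0.946, 0.953 and -0.948. With limma 3.58.1 in R 4.3.3, foreground and background medians were corrected by normexp (offset 50) and normalized by loess within arrays, control and outlier spots at weight 0. Spots were averaged per probe, and probes well above background in the null or the heterozygous channel on all 3 arrays were kept (24575 of 39429). Ratios were tested against 0 with lmFit and eBayes, with Benjamini-Hochberg adjustment over all kept probes, and the brightest probe stood for a gene. The method was tested on simulated data. Log2 intensities per culture come from Aquantile scaling, and one probe's level is not set against another's. The summed log2 levels of marker lists add the probes' unlogged levels, so the brightest probes weigh most. They leave out a probe where it was not measured (Tnnt2 and Col1a1 in replicate 1, Postn in replicate 2). Cross-hybridization with pseudogene copies was not tested.

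Probes were named by accession in a RefSeq table (GRCm38.p6), which named 28025 of 39429 (71.1%). The array design is on mm9 per the file headers. Replicate 3 was turned, so 2 arrays have one dye orientation and 1 the other, and a dye effect does not cancel fully. Both cultures of an array are the pair, as each ratio is taken within an array. Given with array values are the 3 highest and 3 lowest genes of each complex and the isoform pairs, and of each other list the 2 highest and 2 lowest called genes. Core and further accessory genes of complex I, Uqcrc2, Uqcrfs1, Cox5b, Cox6c, Cox7b, Atp5c1, Atp5j and Atp5j2 are named beside them after their values were seen. The values of 1 complex I gene are not reported here, though it is in the counts. The members and lists were chosen with earlier results of these data known. The number of arrays limits the precision.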

Additional observations from a re-analysis of the deposited data

How the results depend on the processing

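In the main setting 18 subunit genes were higher and 17 lower, with a median of 0.034. Median centring without loess gave 50 and 2, a median of 0.43 and complex medians of 0.42 (I), 0.56 (II), 0.39 (III), 0.42 (IV) and 0.43 (V), with Atp5d at 0.16, Cox6b1 at 0.058, Uqcc3 at 0.057, Idh3b at 0.12 and Timm10b at 0.096. The authors' deposited table gave 10 and 11 and medians of 0.0070 (members), 0.037 (II) and 0.026 (IV), with Cox6a1 at 0.21, Atp5g2 at 0.37 and Atpaf1 at 0.0027. The ordinary statistic called 3996 genes, 7 and 6 of them subunit genes (median 0.014, over 78 genes). Processed signals gave 11 higher and 16 lower subunit genes, with 11918 of all genes called (11947 in the main setting). The medians there were -0.0055 (members) and -0.050 (median ratio of complex I). Without the pairing by array (channels fitted as separate samples, no replicate block) 9 and 11 were called. A dye term gave medians of 0.013 (members), -0.049 (I), 0.0067 (III) and 0.022 (IV). Replicate 3 as labelled gave 0 genes called (0 higher and 0 lower subunit genes; 62 genes at an unadjusted p under 0.05 by limma), medians of -0.0021 (members), -0.0098 (median ratio of complex II) and 0.091 (median ratio of complex III), Cox6b2 at 0.0013, Fmc1 at -0.043 and Twnk at -0.077. Leaving out each replicate in turn gave 10 to 17 higher and 10 to 18 lower (49.6% to 60.0% of all genes called). The medians then ran from -0.0053 to 0.036 (members), -0.079 to 0.014 (I), -0.019 to 0.056 (III), -0.023 to 0.040 (IV) and 0.024 to 0.077 (median ratio of complex V). Of the calls, 10 of the 18 higher and 9 of the 17 lower were kept without each replicate. The matching share over all called genes was not computed, so these counts show nothing particular to subunit genes. All 35 calls kept their sign with processed signals, a dye term and the mean of a gene's probes. That mean is unchanged for genes with a single probe. Either other filter, the ordinary statistic and separate channels reuse the main ratio of a probe, so they could not change a sign. The causes were not tested.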

Other observations

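Of the 79 subunit genes, 22 had several probes above the filter. All probes of a gene had the same sign for 18 of the 22, the call was the same for 16, and no gene had probes called in opposite directions (0 of 22). The probes of Cox7c, a small subunit of complex IV, differed most in size among those named here: the brighter gave 0.29 and the other 1.31, with 1.25, 1.57 and 1.11 on its arrays. Ndufa5 missed the threshold with its brighter probe (0.31) and was called higher with the other (0.56, adjusted p = 0.0018). Atp5l had 5 probes, 4 of them not called and the dimmest, measured on 2 arrays, called lower at -0.38.

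The 3 X-linked subunit genes were Ndufa1 at 0.10, Cox7b at 0.09 and Ndufb11 at -0.26. Ratios of single arrays over the 75 subunit genes measured on all arrays correlated across genes at r = 0.926 between replicates 1 and 2, 0.788 between 1 and 3 and 0.786 between 2 and 3, and over all genes at 0.941, 0.904 and 0.901 (genes are not independent replicates).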
